A study of Arabidopsis thaliana with 48 samples.

Results

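Seedlings of the line INO80-(1-550), which carries the N-terminal part of the chromatin remodeller INO80, were compared in long days with seedlings of the line INO80-(335-1540), which carries its C-terminal part. Both lines are Arabidopsis thaliana and both are in the ino80 mutant background, so neither has the intact protein from its own locus. The comparison was set by the labels and not by any measured value, and it rests on 4 libraries of the 48 in the series, 2 for each line. Whole seedlings were harvested at 11 days on plates with 16 h of light and 8 h of dark (long days, LD), and their RNA was sequenced. The groups used beside them are the line INO80-FL, which carries the full-length protein in the same ino80 background, the ino80 mutant itself and wild type Col-0, all with 2 libraries in LD. The same lines were also grown in short days (SD, 8 h of light and 16 h of dark) and harvested at 14 days, again with 2 libraries each. The promoter that drives the transgenes and the number of independent lines are not given in the sources used here, so each line stands for 1 genotype. Nothing in the labels says that repeats came from separate cultures, so every p measures the spread between repeats, which may be technical. That spread was pooled over 18 groups fitted together, 36 libraries in all, and not taken from the 4 libraries alone.

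INO80 is the large ATPase subunit of a chromatin remodelling complex that moves nucleosomes and acts on the histone variant H2A.Z. It works in transcription, DNA repair and replication. Its motor is a SNF2-type ATPase, split by a long insertion, and lies in the C-terminal part of the protein. The part ahead of the motor holds the HSA region, which in yeast INO80 binds actin and actin-related proteins, and in human INO80 the N-terminus carries a separate group of subunits that includes NFRKB and UCH37. In Arabidopsis, loss of INO80 reduces homologous recombination and changes flowering time and growth. Setting the lines against each other asks where seedlings with the N-terminal construct differ from seedlings with the C-terminal construct. Residues 335 to 550 are in both constructs, and whether the HSA region lies in that stretch was not tested. The comparison thus cannot be read as the part ahead of the motor against the motor. Bulk RNA was measured, so fewer cells of a type and less RNA per cell cannot be told apart.

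The constructs overlap in 216 residues. On the RefSeq annotation of TAIR10.1, the INO80 gene (AT3G57300, chr3:21199150-21207893, plus strand) has 4 annotated proteins, and the one with 1540 residues, which matches the names of the lines, has 24 coding parts. The others have 1507, 1507 and 1252 residues. Residues 1 to 550 take 1650 coding bases, 35.7% of the total, and end in coding part 7. Residues 335 to 1540 take 3618 coding bases, 78.3% of the total, and begin in coding part 5. The 648 bases between codons 335 and 550 are in both constructs, which is 14% of the coding sequence. The genomic sequence around each boundary is shown because it marks where the lines part. Capitals mark codon 335, the first of the C-terminal construct, and codon 550, the last of the N-terminal construct.
Codon 335, chr3:21201144-21201233: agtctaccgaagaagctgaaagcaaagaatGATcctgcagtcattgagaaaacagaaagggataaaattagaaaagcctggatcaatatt
Codon 550, chr3:21202269-21202358: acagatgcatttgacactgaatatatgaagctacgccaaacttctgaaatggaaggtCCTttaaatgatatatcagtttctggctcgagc

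INO80 reads were more abundant in the C-terminal line. The deposited values are normalised read counts per gene, on which 1 stands for about 1 read. INO80 stood at 6551 and 6307 in the N-terminal line, against 12627 and 11548 in the C-terminal line, and at 4955 and 4616 in INO80-FL, 941 and 783 in ino80 and 1582 and 1579 in wild type. All 3 transgenic lines were above wild type and ino80 was below it, which fits the labels. The log2 difference, N-terminal minus C-terminal, was -0.91 (SE 0.0956, limma adjusted p = 1.14e-06), and in SD it was -0.90 (adjusted p = 1.95e-06). Read counts were not divided by length, and the C-terminal construct offers more coding bases, so the values do not give the number of transcripts of each construct. EIF3E (AT3G57290), which encodes subunit e of translation initiation factor 3 and overlaps INO80 in the annotation, stood at 3118 and 2975 in the N-terminal line and 1689 and 1812 in the C-terminal line, against 2269.8 and 2359 in wild type. Its log2 difference between the lines was 0.80 (adjusted p = 1.42e-08), higher in the N-terminal line. The strand setting of the counting is not given in the sources used here, so reads of overlapping genes may be shared.

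Many genes differed between the lines. Of 25638 genes tested, 4897 (19.1%) passed a limma moderated test at a Benjamini-Hochberg adjusted p under 0.05, with 2353 (9.18%) higher and 2544 (9.92%) lower in the N-terminal line. Of these, 900 (3.51%) differed at least 2-fold, 623 (2.43%) higher and 277 (1.08%) lower. The median log2 difference over all genes was 0 and its median size was 0.215. Scaling the libraries to equal totals moved the median by 0.048 and the split of calls to 3165 higher and 1476 lower, 68.2% higher against 48.0% as deposited, so the balance of directions depends on the scaling. The count was 3177 without repeat 2 of the N-terminal line, 3083 without repeat 1 of the C-terminal line and 3015 without its repeat 2, and a fit on the 4 libraries alone gave 2127. Library totals were between 18867187 and 22653356 normalised reads over the 36 libraries of the table, and repeats of a group correlated at r of 0.990 to 0.992 across genes.

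**Figure D1:**
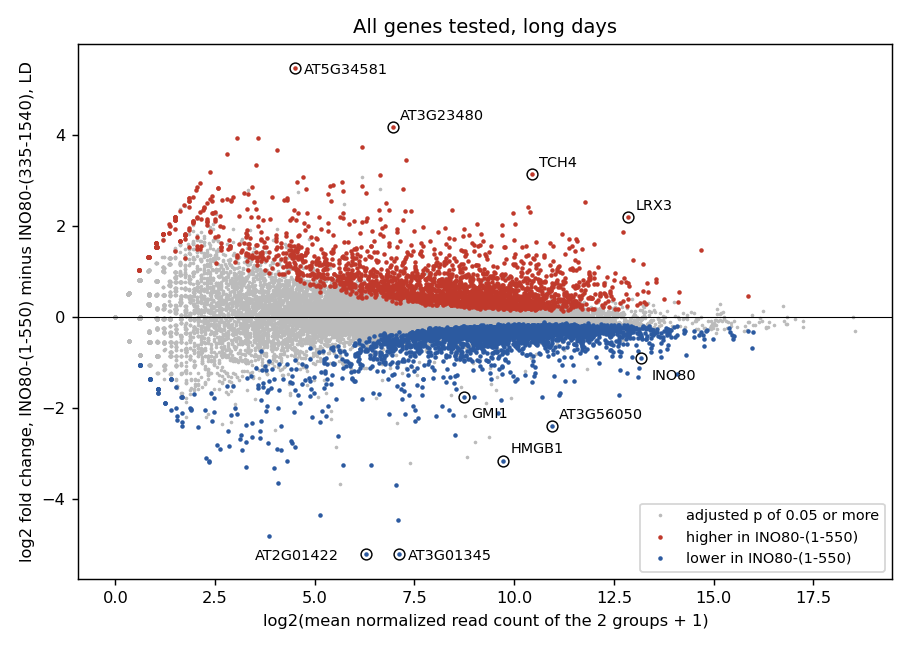
Log2 difference between the N-terminal and the C-terminal line in LD (vertical axis) against mean log2 level (horizontal axis), 1 point per gene tested, with genes past an adjusted p of 0.05 in colour. Calls, red where higher and blue where lower in the N-terminal line, spread on both sides of 0, with TCH4 at 3.14, HMGB1 at -3.16 and AT3G56050 at -2.40.

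Markers of other tissues were read beside these calls. Among 12 tested genes of seed storage and oleosins, 1 was higher (PAP85, a vicilin-like seed storage protein, 18.1 and 11.0 in the N-terminal line and 0 in both libraries of the C-terminal line), and the list summed to 682 and 130 in the N-terminal line and to 37 and 355 in the C-terminal line, so repeats of 1 line differed more than the lines did. Among 16 genes of root endodermis and root hairs, 1 was higher (THAS1, thalianol synthase, log2 0.89), and the list summed to 6014 and 7273 in the N-terminal line and to 7066 and 6277 in the C-terminal line. Antenna and Rubisco genes, the markers of green tissue, summed to 2510308 and 2032153 in the N-terminal line and to 2457059 and 2310904 in the C-terminal line. The part of tissue make-up in the results below was not tested.

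The demethylase genes DML3 and DML2 were higher in the N-terminal line. DML3 and DML2 encode DNA glycosylases that excise methylated cytosine. DML3 (AT4G34060) stood at 199.98 and 183 in the N-terminal line and 42.9 and 31.0 in the C-terminal line, with 31.6 and 23.5 in ino80 and 175 and 176 in wild type. DML2 (AT3G10010) stood at 206 and 216 in the N-terminal line and 49.0 and 61.5 in the C-terminal line, with 94.9 and 96.3 in ino80 and 273 and 275 in wild type. The lines did not overlap for either gene, which was also true of 57.5% of all genes tested. In the N-terminal line DML3 was slightly above wild type and DML2 below it, while the C-terminal line was near the mutant for DML3 and below it for DML2. The log2 differences were 2.36 (SE 0.218, adjusted p = 1.94e-07) for DML3 and 1.92 (SE 0.169, adjusted p = 9.78e-08) for DML2, and in SD they were 1.77 (adjusted p = 1.86e-05) and 1.58 (adjusted p = 2.25e-06). DML1, known as ROS1, the main demethylase of leaves and seedlings, showed a smaller difference in the same direction, 796 and 829.7 in the N-terminal line and 587 and 534 in the C-terminal line (log2 0.54, adjusted p = 0.00013), and in SD it was not called (log2 0.18, adjusted p = 0.238).

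The gene lists of this report were written with earlier results of these data known, so their counts are a description and not independent support. Of the 11 genes for DNA methylation and Argonaute proteins, 6 were higher in the N-terminal line and 2 lower, with a median log2 of 0.24, against 9.18% and 9.92% of all genes. The count of higher genes was 3 without repeat 1 of the N-terminal line. AGO9, an Argonaute protein known from ovules, was lower, 12.8 and 12.0 in the N-terminal line and 50.6 and 37.4 in the C-terminal line, with 30.6 and 30.4 in ino80 and 3.31 and 3.3 in wild type (log2 -1.73, adjusted p = 0.00352). FDM2, a factor of RNA-directed DNA methylation that was not on the list, was also lower, 54.6 and 58.1 in the N-terminal line and 134 and 126 in the C-terminal line (log2 -1.19, adjusted p = 0.000241). Unlike AGO9, FDM2 was farther from wild type in the N-terminal line, since it stood at 70.1 and 95.3 in ino80 and 199.9 and 191 in wild type.

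Further genes were higher in the N-terminal line, most of them genes that were lower in ino80 than in wild type. HOL2, of the HARMLESS TO OZONE LAYER methyltransferase family, stood at 244 and 268 in the N-terminal line and 53.0 and 47.9 in the C-terminal line, with 68.2 and 48.1 in ino80 and 315 and 303 in wild type (log2 2.32, SE 0.180, adjusted p = 1.11e-08). CYP71B24, a cytochrome P450, stood at 114 and 137 in the N-terminal line and 21.4 and 37.0 in the C-terminal line, with 47.4 and 43.2 in ino80 and 338 and 259.7 in wild type. For both genes the C-terminal line lay in or near the range of the mutant, while in the N-terminal line HOL2 was close to wild type and CYP71B24 lay between mutant and wild type. MLP328, a major latex protein-like gene, stood at 169 and 185 in the N-terminal line and 21.0 and 18.1 in the C-terminal line, with 90.0 and 58.8 in ino80 and 382 and 245 in wild type, so the C-terminal line was below the mutant. BGLU7 (a beta-glucosidase, log2 2.35), NUDT8 (a Nudix hydrolase, log2 2.00) and ANNAT7 (an annexin, which binds phospholipids with calcium, log2 1.94) were likewise higher in the N-terminal line and lower in ino80 than in wild type. CBL8, a calcineurin B-like calcium sensor, differed by a log2 of 2.54 in LD and 2.39 in SD, and DAR3, of the DA1-related family, by 2.29 and 2.19. In ino80 against wild type, CBL8 was lower (log2 -1.34) and DAR3 was not called (log2 -0.17, adjusted p = 0.736).

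Greening regulators were split. CGA1, a GATA factor that promotes chloroplast development, stood at 114 and 138 in the N-terminal line and 15.5 and 17.0 in the C-terminal line, with 74.1 and 61.8 in ino80 and 140.1 and 98.3 in wild type (log2 2.87, SE 0.270, adjusted p = 2.43e-07). PORA, which carries out the light-dependent step of chlorophyll synthesis in etiolated seedlings, stood at 202 and 71.2 in the N-terminal line and 15.6 and 19.1 in the C-terminal line, with 59.3 and 58.2 in wild type. These were the higher calls among 19 genes of chlorophyll synthesis, breakdown and greening, against 9.18% of all genes higher and 9.92% lower. The 5 lower calls included the paired greening factors GPRI1, known as GLK1 (log2 -0.52), and GLK2 (log2 -0.45), and the genes CH1 (log2 -0.38), CHLI1 (log2 -0.29) and ACD2 (log2 -0.41), which were named after their values were seen. The number of lower calls was 0 without repeat 2 of the N-terminal line, 1 without repeat 1 of the C-terminal line and 8 without repeat 1 of the N-terminal line, so it depends on single libraries.

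**Figure D2:**
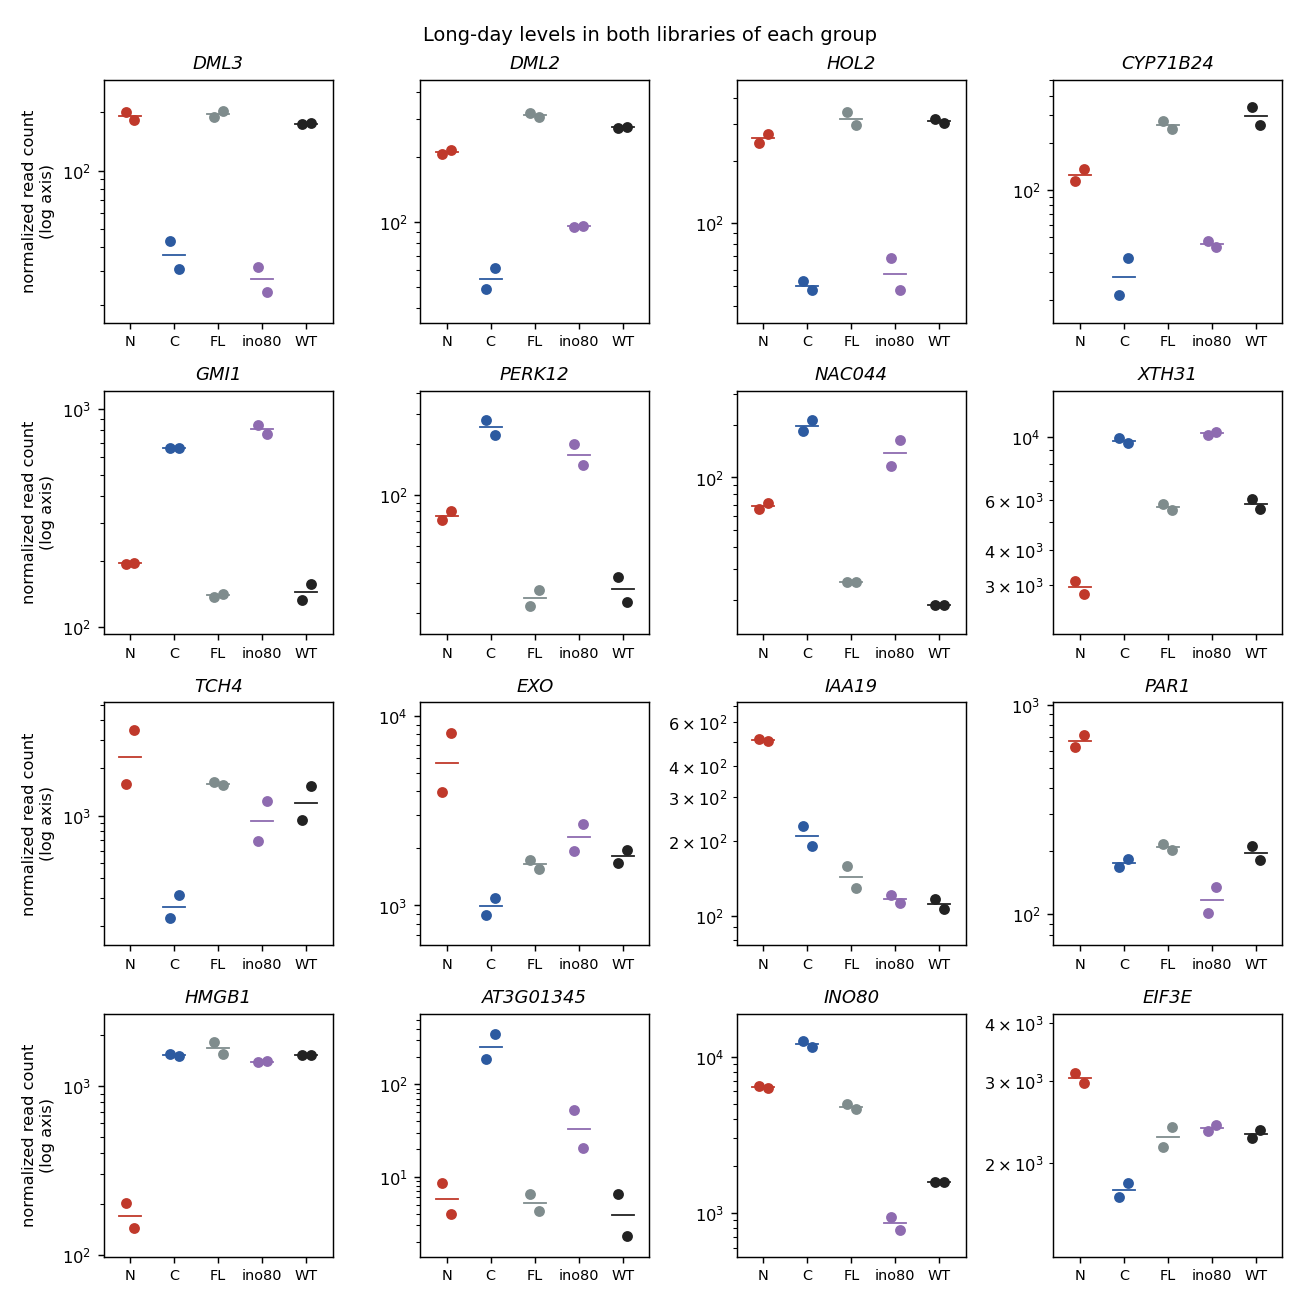
Normalised read counts (log axis) of 16 genes in each LD library of the N-terminal line, the C-terminal line, INO80-FL, ino80 and wild type, 1 point per library and a bar at the geometric mean. DML3, DML2, HOL2 and CYP71B24 were higher, and GMI1, PERK12 and NAC044 lower, in both libraries of the N-terminal line than in both of the C-terminal line. Lines without overlap were found for 57.5% of all genes tested.

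Some genes of the DNA damage response ran the other way. GMI1 (AT5G24280) encodes a protein with an SMC-like hinge that acts in somatic homologous recombination and is induced by DNA breaks. It stood at 195 and 196 in the N-terminal line and 659.7 and 663 in the C-terminal line, with 847 and 771 in ino80 and 132 and 158 in wild type. NAC044 (AT3G01600), a transcription factor of the cell cycle arrest that follows DNA damage, stood at 66.4 and 71.1 in the N-terminal line and 184 and 212 in the C-terminal line, with 117 and 163 in ino80 and 18.7 and 18.7 in wild type. Both genes were above wild type in both lines, GMI1 only slightly so in the N-terminal line, and the C-terminal line was somewhat below the mutant for GMI1 and above it for NAC044. The log2 differences were -1.75 (SE 0.163, adjusted p = 2.18e-07) for GMI1 and -1.51 (SE 0.335, adjusted p = 0.0025) for NAC044, with -1.96 (adjusted p = 4.83e-08) and -2.95 (adjusted p = 6.07e-06) in SD.

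Of 21 tested DNA damage response genes, 4 were lower in the N-terminal line in limma, with a median log2 of -0.17, against 9.18% of all genes higher and 9.92% lower, and 0 were higher, also at an unadjusted p under 0.05 and with voom weights. The other lower calls were AT3G27630, known as SMR7 and annotated as a cyclin-dependent kinase inhibitor (log2 -0.96, adjusted p = 0.0252), and TSO2, a small subunit of ribonucleotide reductase (log2 -0.48, adjusted p = 0.00176). In ino80 against wild type, 8 members of the list were higher, against 13.2% of all genes. The factor SOG1 is known to bind the letters CTT and AAG with 7 bases between them at DNA damage response genes. The promoter of NAC044 is shown, 250 bases before to 50 bases after the annotated start, with its only copy of that sequence in capitals.
NAC044, chr3:228825-229124, plus strand: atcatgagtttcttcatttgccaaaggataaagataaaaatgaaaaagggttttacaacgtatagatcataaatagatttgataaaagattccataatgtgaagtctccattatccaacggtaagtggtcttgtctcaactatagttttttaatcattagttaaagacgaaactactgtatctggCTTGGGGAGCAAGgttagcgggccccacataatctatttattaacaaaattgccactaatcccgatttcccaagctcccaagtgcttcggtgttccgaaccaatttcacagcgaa
On either strand of such windows the sequence was found in 11.6% of all 25638 genes, in 6 of the 21 DNA damage response genes (28.6%), in 10.3% of the genes lower and 11.3% of those higher in the N-terminal line, and in 15.2% of those at least 2-fold lower and 11.4% of those at least 2-fold higher. The GMI1 window holds no copy. Letters in a window are a description and do not show binding.

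PERK12 and XTH31 were lower in the N-terminal line. PERK12, a proline-rich extensin-like receptor kinase, stood at 70.8 and 80.2 in the N-terminal line and 278 and 226 in the C-terminal line, with 199.7 and 149 in ino80 and 32.8 and 23.2 in wild type (log2 -1.72, SE 0.175, adjusted p = 6.12e-07). XTH31, a xyloglucan-modifying wall enzyme, stood at 3105 and 2799.8 in the N-terminal line and 9874 and 9498 in the C-terminal line, with 10181 and 10434 in ino80 and 6022 and 5584 in wild type. XTH31 was thus below wild type in the N-terminal line and close to the mutant in the C-terminal line. SEP3, a floral MADS-box factor, was lower (log2 -0.96, adjusted p = 0.0169), the only call among 10 floral organ MADS genes and one that was lost when 1 of the 4 libraries was left out (adjusted p of up to 0.183). MLP168 (log2 -1.49) and BGLU18, a glucosidase that releases abscisic acid from its conjugate (log2 -1.23), were lower as well, and both were higher in ino80 than in wild type. AIG2, a gene induced by bacterial avirulence, was lower in both day lengths, with log2 differences of -1.17 in LD and -0.61 in SD.

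Set against the mutant as a whole, the calls leaned to the opposite side. The difference of ino80 and wild type in LD shares no library with the difference of the lines. It called 7341 genes (28.6%), 3372 (13.2%) higher and 3969 (15.5%) lower in ino80. Tissue markers moved with this comparison. Of 12 seed storage and oleosin genes 9 were higher in ino80, with sums of 840 and 2405 in ino80 and 36 and 67 in wild type, and of 21 antenna and Rubisco genes 20 were lower, with sums of 1591592 and 1554124 in ino80 and 2616857 and 2641899 in wild type. Their part in the values on this axis was not tested. Called in both were 2038 genes, 41.6% of the calls between the lines and 27.8% of those in the mutant. Of these, 1309 (64.2%) had opposite signs, against 54.2% of all genes tested. They comprised 714 genes higher in the N-terminal line and lower in ino80 and 595 lower in the N-terminal line and higher in ino80. The genes with the same sign comprised 192 higher in both comparisons and 537 lower in both. The lean was thus mostly among genes higher in the N-terminal line. Among the 240 genes at least 2-fold in both comparisons, 197 (82.1%) had opposite signs. The Pearson correlation of the differences across all 25638 genes was -0.156, with the genes of each comparison measured in the same libraries.

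Each line was then placed on the axis from ino80 to wild type. For each gene a line was called nearer to whichever of the groups its mean on the log2(value + 1) scale was closer to. Among the 2038 genes called in both comparisons, 44.6% (908) had the N-terminal line nearer wild type and the C-terminal line nearer ino80, and 20.7% (421) had the reverse. The shares were 65.8% and 11.7% among the 240 genes at least 2-fold in both, 22.4% and 13.8% among the 7341 genes called in the mutant, and 19.8% and 15.8% among all genes tested. Genes called between the lines in LD, and in ino80 against wild type in the separate table of SD libraries, gave 44.5% and 20.9% of 931 genes. Genes chosen by that separate table alone gave 22.6% and 14% of 3419 genes. In both cases nearness was measured in the same LD libraries as before. The gap between the shares depends on the scaling and on single libraries. With equal library totals the shares were 37.6% and 26.3%. They were 41.2% and 30.7% without repeat 1 of the N-terminal line, and 56.9% and 11.2% without its repeat 2. The split of genes higher or lower in the mutant depends on the scaling, since equal totals moved the median of ino80 against wild type by 0.131 and the share of higher calls to 72.5%, against 45.9% as deposited.

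**Figure D3:**
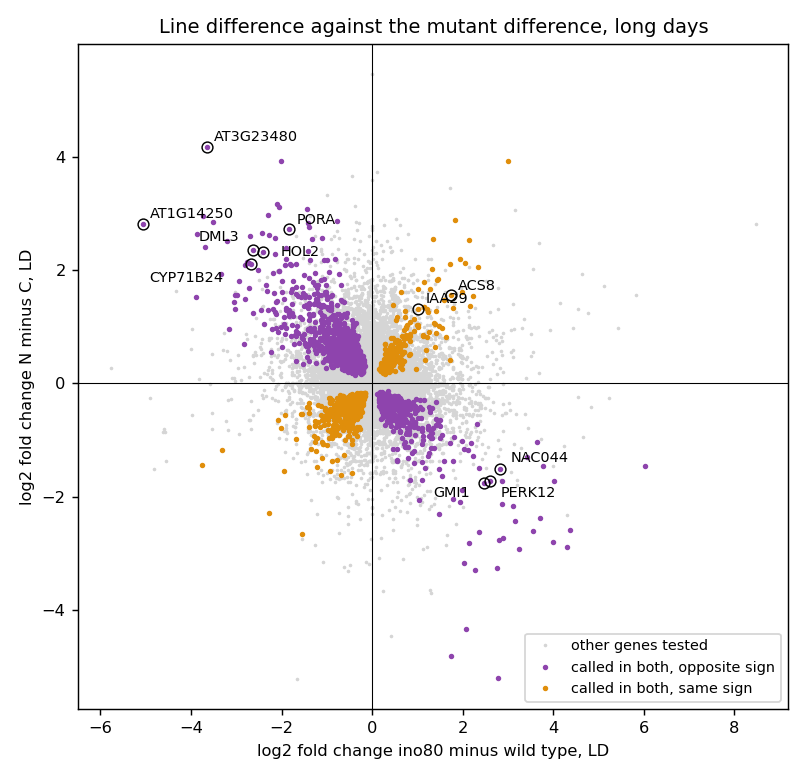
Log2 difference of the N-terminal and C-terminal lines in LD (vertical axis) against that of ino80 and wild type in LD (horizontal axis), 1 point per gene tested, with genes called in both in purple where the signs are opposite and orange where they are the same. Of the 2038 genes called in both, 1309 had opposite signs.

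TCH4 and EXO were higher in the N-terminal line in LD. TCH4, a touch-induced xyloglucan endotransglucosylase, stood at 1576 and 3484 in the N-terminal line and 225 and 312 in the C-terminal line, with 686 and 1234 in ino80 and 935 and 1538 in wild type. EXO, a promoter of cell expansion that brassinosteroids induce, stood at 3955 and 8129.7 in the N-terminal line and 893 and 1094 in the C-terminal line, with 1946 and 2708 in ino80 and 1678 and 1966 in wild type. The N-terminal line was the highest of these groups and the C-terminal line the lowest. Repeat 2 of the N-terminal line was well above its repeat 1 for both genes. The log2 differences were 3.14 (SE 0.448, adjusted p = 3.86e-05) for TCH4 and 2.52 (SE 0.368, adjusted p = 4.76e-05) for EXO. In SD neither was called, with 0.45 (adjusted p = 0.621) and 0.19 (adjusted p = 0.833), and the LD difference exceeded the SD difference in a test of that contrast by 2.69 (adjusted p = 0.0196) and 2.33 (adjusted p = 0.0141).

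The same form was seen for LRX3, a leucine-rich repeat extensin of the cell wall, with 10441 and 13898 in the N-terminal line and 2274 and 3042 in the C-terminal line in LD, and 2837 and 3881 in the N-terminal line and 4378 and 3719.6 in the C-terminal line in SD. AGP17, an arabinogalactan protein, stood at 1427 and 1891 in the N-terminal line and 347 and 462 in the C-terminal line in LD, and EXL5, of the EXORDIUM-like family, at 1702 and 2759.7 in the N-terminal line and 363 and 520.3 in the C-terminal line. XTH33, another xyloglucan-modifying enzyme, DREB26, an AP2 family transcription factor, and DFL2, of the GH3 family, differed by log2 values of 1.82, 2.02 and 1.55 in LD. For each of these genes the LD and SD differences themselves differed. Over all genes that contrast called 906 (3.53%).
Of 8 tested genes on the touch and wound list, not all of which encode transcription factors, 3 were higher in the N-terminal line. The median log2 was 0.44, and 9.18% of all genes were higher. They were TCH4, TCH2, a calmodulin-like protein (log2 0.87, adjusted p = 0.00273), and MYBR1, known as MYB44 (log2 0.86, adjusted p = 2.28e-05).

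Some auxin response and shade genes were also higher. IAA19 (AT3G15540), an Aux/IAA repressor that auxin induces in elongating tissue, stood at 514 and 507 in the N-terminal line and 229 and 191 in the C-terminal line, with 121 and 112 in ino80 and 116 and 107 in wild type. IAA29, of the same family, stood at 1658 and 1249.6 in the N-terminal line and 613 and 539 in the C-terminal line, with 201 and 187 in ino80 and 87.1 and 104 in wild type. Both truncated lines were above ino80 and wild type for both genes, the N-terminal line more so. The log2 differences were 1.29 (SE 0.174, adjusted p = 2.35e-05) for IAA19 and 1.32 (SE 0.174, adjusted p = 1.73e-05) for IAA29. In SD, IAA19 was not called (log2 -0.32, adjusted p = 0.296) and IAA29 was higher (log2 0.67, adjusted p = 0.0189).
Of 22 auxin genes, 7 were higher in the N-terminal line and 1 lower, with a median log2 of 0.19, against 9.18% of all genes higher and 9.92% lower. SHY2, known as IAA3 (log2 0.96), and IAA30 (log2 1.13) were among the higher ones, and the lower one was TAA1, which makes the auxin precursor indole-3-pyruvate (log2 -0.87, adjusted p = 0.000207), named after its values were seen. The promoter of IAA19 is shown with its 3 copies of the auxin response element TGTCTC in capitals.
IAA19, chr3:5263751-5264050, plus strand: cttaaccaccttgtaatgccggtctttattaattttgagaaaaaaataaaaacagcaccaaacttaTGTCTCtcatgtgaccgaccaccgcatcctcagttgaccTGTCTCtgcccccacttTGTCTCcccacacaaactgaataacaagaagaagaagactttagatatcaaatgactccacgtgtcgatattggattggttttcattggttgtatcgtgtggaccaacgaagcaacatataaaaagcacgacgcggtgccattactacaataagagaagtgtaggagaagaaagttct
The element was found on either strand in 14.2% of all genes, in 11 of the 22 auxin genes (50%), in 15.1% of the genes higher and 13.3% of those lower in the N-terminal line, and in 14.4% of those at least 2-fold higher and 20.6% of those at least 2-fold lower. The windows of IAA29 and SHY2 hold 0 copies.

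PAR1 and HFR1, helix-loop-helix proteins that restrain the shade response, were higher in the N-terminal line. PAR1 stood at 629 and 715 in the N-terminal line and 167 and 184 in the C-terminal line, with 213 and 181 in wild type, and HFR1 at 967 and 814 in the N-terminal line and 307 and 204 in the C-terminal line, with 511 and 382 in wild type. Their log2 differences were 1.93 (adjusted p = 1.14e-05) and 1.82 (adjusted p = 1.82e-06) in LD, and neither was called in SD (adjusted p = 0.917 and 0.215). Among 24 light signalling genes 3 were higher and 8 lower, with a median log2 of -0.13, against 9.18% of all genes higher and 9.92% lower. HFR1, the B-box protein LZF1 (log2 0.70) and the photoreceptor gene PHYA (log2 0.53), named after its values were seen, were the higher ones. HYH, a homologue of the light regulator HY5 (log2 -0.79), and ELIP2, an early light-induced protein of the chloroplast (log2 -1.14), were among the lower ones. The number of lower ones was 3 without repeat 2 of the N-terminal line and without repeat 1 of the C-terminal line, 5 without either other repeat and 4 with equal library totals.

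Several genes of dark and sugar starvation were higher in the N-terminal line. Of 11 tested, 5 were higher in limma, with a median log2 of 0.55, against 9.18% of all genes higher. In the lower direction there were 0, also at an unadjusted p under 0.05 and with voom weights. DIN10, a dark-inducible gene of the raffinose synthase family, stood at 10067 and 11401 in the N-terminal line and 2491 and 3415 in the C-terminal line, with 2577 and 2743 in ino80 and 2269 and 2246 in wild type (log2 1.88, SE 0.288, adjusted p = 8.39e-05). SEN1, a senescence-associated gene that darkness induces, stood at 3441 and 2593 in the N-terminal line and 818 and 1241 in the C-terminal line, with 401 and 447 in ino80 and 918 and 938 in wild type. For both genes the N-terminal line was above the C-terminal line, ino80 and wild type, and the C-terminal line was near wild type. TPS8 (log2 0.90) and TPS11 (log2 0.73), of the trehalose-6-phosphate synthase family, were higher too, as was AKINBETA1, a regulatory subunit of the energy-sensing kinase SnRK1 (log2 0.51), named after its values were seen. The number of higher calls was 3 without repeat 1 of the N-terminal line. ASN1, the asparagine synthetase that darkness induces, stood at 3839.8 and 3944 in the N-terminal line and 1506 and 1234 in the C-terminal line (log2 1.51, adjusted p = 7.37e-06).

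Ethylene and jasmonate genes gave mixed directions. Of 20 ethylene genes 6 were higher and 3 lower, against 9.18% of all genes higher and 9.92% lower. ACS11 (log2 1.89), ACS8 (log2 1.56) and ACS5 (log2 1.08), which make the ethylene precursor, were higher, as was the response factor ERF104 (log2 0.82). EBF2 (log2 -0.23) and ERS2 (log2 -0.52) were among the lower ones, named after their values were seen. The number of lower calls in limma was 0 with equal library totals and 1 with voom weights, against 3 as deposited. At an unadjusted p under 0.05 it was also 3 as deposited. ACS8 stood at 946 and 1083 in the N-terminal line and 334 and 351 in the C-terminal line, with 71.8 and 95.1 in wild type.
Of 21 jasmonate genes 2 were higher and 7 lower, with a median log2 of -0.64, against 9.18% of all genes higher and 9.92% lower. The repressor gene JAZ7 stood at 54.0 and 91.2 in the N-terminal line and 9.91 and 7.48 in the C-terminal line (log2 2.89, adjusted p = 0.00141), and JAZ10, named after its values were seen, was higher by a log2 of 1.05. VSP1, a vegetative storage protein that jasmonate induces, stood at 97.5 and 110.2 in the N-terminal line and 268 and 347 in the C-terminal line, with 72.0 and 139.7 in ino80 and 120.2 and 77.5 in wild type (log2 -1.55, adjusted p = 0.000398). CORI3, a coronatine-induced cystine lyase, stood at 5070.4 and 5006 in the N-terminal line and 13437 and 11836 in the C-terminal line, with 8557 and 10607 in ino80 and 5249.6 and 5767 in wild type. The defensin gene PDF1.2 stood at 55.7 and 175 in the N-terminal line and 494 and 729.6 in the C-terminal line (log2 -2.59, adjusted p = 0.0369), and its call was lost when 1 of the 4 libraries was left out (adjusted p of up to 0.289). The number of lower calls was 4 without repeat 1 and 4 without repeat 2 of the C-terminal line.

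Several flavonoid genes were lower in the N-terminal line. Of 17 tested, 10 were lower in the N-terminal line and 1 higher, with a median log2 of -0.89, against 9.92% of all genes lower. DFR, which commits flavonoids to anthocyanins, stood at 657 and 879 in the N-terminal line and 2411 and 2701 in the C-terminal line, with 1560 and 2848 in ino80 and 952 and 1285 in wild type (log2 -1.75, SE 0.606, adjusted p = 0.0454). LDOX, the anthocyanidin synthase, stood at 309.9 and 411 in the N-terminal line and 1113 and 1417 in the C-terminal line, with 981 and 1859 in ino80 and 595 and 826 in wild type. Both genes were below wild type in the N-terminal line and within the wide range of the mutant in the C-terminal line. UF3GT, an anthocyanin glycosyltransferase (log2 -1.95, adjusted p = 0.0317), and GSTF12, which carries anthocyanins to the vacuole (log2 -1.75, adjusted p = 0.0302), were lower too. The gene higher in the N-terminal line was MYBL2, a repressor of the pathway (log2 0.65, adjusted p = 0.0233), named after its values were seen. The number of lower calls was 4 without either repeat of the N-terminal line or without repeat 2 of the C-terminal line, and 5 without its repeat 1, so it depends on all 4 libraries.

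Glucosinolate genes gave lower calls of smaller size. Of 20 tested, 9 were lower and 1 higher, with a median log2 of -0.32, against 9.92% of all genes lower and 9.18% higher. MYB29, a regulator of the aliphatic branch, stood at 572 and 378 in the N-terminal line and 1032 and 904 in the C-terminal line, with 866 and 659 in wild type (log2 -1.05, adjusted p = 0.000262). CYP79F1 (log2 -0.70), SOT18 (log2 -0.60) and MAM1 (log2 -0.58) are enzymes of that branch and were lower. The higher gene was CYP79B2, of the indolic branch (log2 0.57), named after its values were seen. The number of lower calls was 4 without repeat 2 of the N-terminal line.

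Stress and storage lists also gave lower calls. Of 20 abscisic acid and cold genes 4 were lower, with a median log2 of -0.83, and 9 at an unadjusted p under 0.05. The share of all genes called lower, against which this and the next counts stand, was 9.92%, and 9.18% were higher. ABI1, a phosphatase of abscisic acid signalling, stood at 1140.2 and 929 in the N-terminal line and 4099 and 2761 in the C-terminal line, and HAB1, of the same family, at 707 and 718 in the N-terminal line and 2080.2 and 1432 in the C-terminal line. LTI78 (log2 -0.89) and the dehydrin gene ERD10 (log2 -0.77) were the others. The number of lower calls was 0 without repeat 1 of the C-terminal line and 2 without repeat 2 of the N-terminal line, so these calls rest on single libraries. Of 17 heat shock genes 3 were lower, MBF1C (log2 -1.14), HSP70 (log2 -0.89) and HSA32 (log2 -0.49), and of 7 starch turnover genes 3 were lower, APL3 (log2 -1.06), CT-BMY (log2 -0.86) and GBSS1 (log2 -0.24). Of 15 nitrate and nitrogen genes 6 were lower and 1 higher, the higher one being ASN1. ASN2, a second asparagine synthetase (log2 -0.60), UPM1, which makes sirohaem (log2 -0.58), and G6PD3, which supplies reducing power in plastids (log2 -0.47), were among the lower ones, and 3 were lower without repeat 2 of the C-terminal line or with equal library totals.

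Some of the largest falls were of genes outside these lists. ERF53, an ethylene response factor that drought induces, stood at 8.57 and 9.02 in the N-terminal line and 108 and 79.0 in the C-terminal line, with 10.9 and 12.8 in ino80 and 20.8 and 16.6 in wild type (log2 -3.25, SE 0.694, adjusted p = 0.00176). GA3OX1, which makes active gibberellin, stood at 353 and 406 in the N-terminal line and 1145 and 832 in the C-terminal line, with 474 and 481 in ino80 and 295 and 363 in wild type (log2 -1.36, SE 0.165, adjusted p = 6.74e-06). In both cases the C-terminal line was above ino80 and wild type. CPK15, a calcium-dependent protein kinase (log2 -1.48), CYP71A25 and CYP96A4, cytochromes P450 (log2 -1.36 and -1.29), and TBL26, of the trichome birefringence-like family (log2 -1.28), were lower as well. Among the higher genes were SOB5 (log2 2.90), TRFL8 (log2 2.15) and TPS12, a terpene synthase (58.3 and 103 in the N-terminal line and 21.9 and 11.8 in the C-terminal line).

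Some loci stood apart in 1 line in both day lengths, and those described here were chosen after their values were seen, except HMGB1. HMGB1 (AT3G51880), a high mobility group protein of chromatin, stood at 202 and 143 in the N-terminal line and 1551 and 1496 in the C-terminal line in LD, and at 222 and 188 in the N-terminal line and 1751 and 1690.1 in the C-terminal line in SD. Over the 32 libraries of the table that are not of the N-terminal line it ranged between 1234 and 2134, so all 4 libraries of the N-terminal line were far below every other library. The log2 difference was -3.16 (SE 0.102, adjusted p = 7.42e-16). AT3G56050, annotated as a protein kinase, stood at 699 and 555 in the N-terminal line and 3604 and 3002 in the C-terminal line, and between 2267 and 3677 in the other 32 libraries. Its neighbours UGP3 (log2 -0.30) and AT3G56060 (log2 0.60), and the neighbours AT3G51870 (log2 0.01) and AT3G51890 (log2 -0.59) of HMGB1, differed by less. HMGB1 overlaps AT3G51870 in the annotation.

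The N-terminal line had reads at loci listed at 0 elsewhere. AT5G34581, annotated as a hydroxyproline-rich glycoprotein, stood at 50.1 and 37.1 in LD and 73.3 and 55.1 in SD in the N-terminal line and was listed at 0 in the other 32 libraries. AT4G04265, annotated as a transposase of the En/Spm family, stood at 17.0 and 7.02 in LD and 22.5 and 19.97 in SD in the N-terminal line and was also listed at 0 in all 32, and it overlaps AT4G04270 in the annotation. The C-terminal line had its own. AT3G01345, an uncharacterised protein, stood at 8.49 and 4.01 in the N-terminal line and 186 and 347 in the C-terminal line in LD, at 13.3 and 3.71 in the N-terminal line and 968 and 874 in the C-terminal line in SD, and between 2.12 and 55.4 in the libraries of the other genotypes. The non-coding RNA genes AT4G04223 (log2 -3.70) and AT2G01422 (log2 -5.22) were higher in the C-terminal line as well, and AT2G01422 stood at 3.21 and 3.01 in the N-terminal line and 147 and 156 in the C-terminal line. The cause was not tested. In the opposite direction, AT3G23480, annotated as a cyclopropane fatty acid synthase, stood at 250.2 and 216 in the N-terminal line and 11.1 and 12.7 in the C-terminal line, with 8.90 and 5.88 in ino80 and 108 and 97.8 in wild type, and AT1G14250, a nucleoside phosphatase, at 304 and 212 in the N-terminal line and 38.6 and 32.0 in the C-terminal line, with 15.8 and 26.6 in ino80 and 831 and 621 in wild type.

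The difference between the lines was smaller in SD and partly the same. In SD, 1987 genes (7.75%) were called, 1014 (3.96%) higher and 973 (3.8%) lower in the N-terminal line. The count was 749 and 1098 without repeat 1 and repeat 2 of the N-terminal line, and 862 and 827 without those of the C-terminal line. Of all genes called, 965 were called in both day lengths and 936 of them in the same direction, 453 higher and 483 lower, which is 19.1% of the LD calls and 47.1% of the SD calls. The LD calls had the same sign in SD in 74.7% of cases, against 61.4% of all genes tested. Across genes, which share their libraries, the differences correlated at r = 0.331, and at 0.395 over the 17425 genes with a mean level of at least 50. The groups of the day lengths also differed in age, and the clock gene LHY differed widely between them. It averaged 599.1 in the N-terminal line and 694.2 in the C-terminal line in LD, and 11390 and 11190 in SD. Day length, age and clock phase at harvest thus cannot be told apart in contrasts of LD and SD. Of the 900 LD calls at least 2-fold, 191 were called in the test of LD against SD. That test called 906 genes in all, and 251 without repeat 2 of the N-terminal line in LD, 301 without repeat 1 of the C-terminal line in LD, between 396 and 488 without any 1 of the 4 SD libraries, and 572 in a fit without a mean-variance trend.

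QQS and TAT3 changed sign between day lengths. QQS, a species-specific gene that affects starch and protein content, stood at 80.0 and 62.1 in the N-terminal line and 312 and 273 in the C-terminal line in LD, and at 113 and 87.4 in the N-terminal line and 49.2 and 40.6 in the C-terminal line in SD. In LD the N-terminal line was lower (log2 -2.03, adjusted p = 0.000268) and in SD it was higher (log2 1.13, adjusted p = 0.0494), a contrast of -3.17 (adjusted p = 0.00238). TAT3, a tyrosine aminotransferase that jasmonate induces, stood at 8.68 and 16.0 in the N-terminal line and 57.3 and 105 in the C-terminal line in LD (log2 -2.61, adjusted p = 0.00654), and at 24.4 and 22.8 in the N-terminal line and 1.87 and 8.45 in the C-terminal line in SD (log2 2.24, adjusted p = 0.037). Genes called in the same direction in both day lengths included HOL2, DML3, CBL8 and DAR3 on the higher side and HMGB1, NAC044, PERK12 and GMI1 on the lower side.

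**Figure D4:**
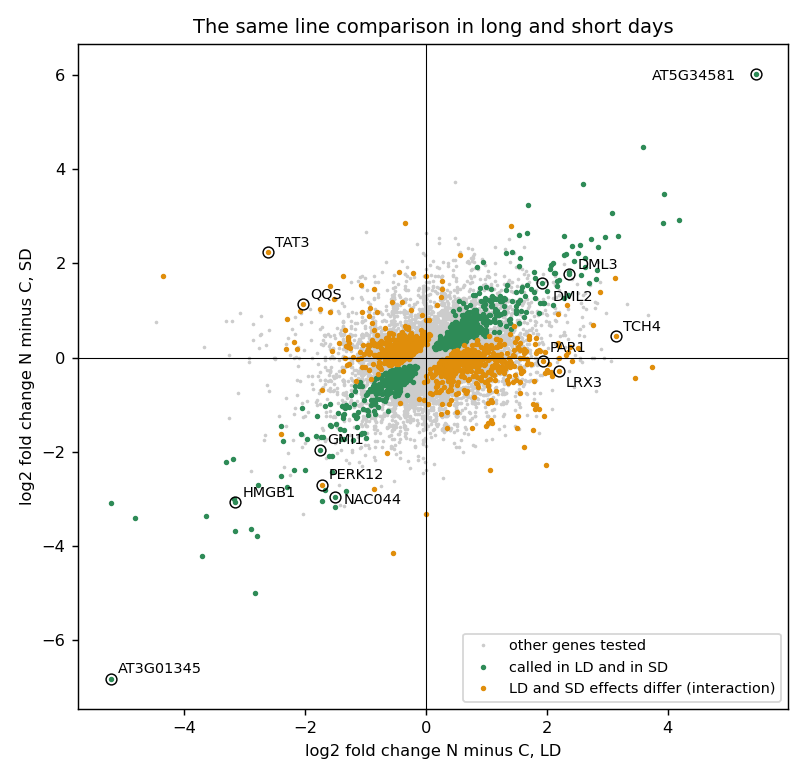
Log2 difference of the N-terminal and C-terminal lines in SD (vertical axis) against that in LD (horizontal axis), 1 point per gene tested, with genes called in both day lengths in green and genes called in the test of the difference in orange, drawn over the green. Genes called in both lie mostly on the side of equal sign, 936 of 965, and TAT3 and QQS lie on the other.

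Each line was also set against wild type in LD, in comparisons that share the wild type libraries and are given side by side only. The N-terminal line called 6352 genes (24.8%), 2991 (11.7%) higher and 3361 (13.1%) lower than wild type, and the C-terminal line called 6902 (26.9%), 3348 (13.1%) higher and 3554 (13.9%) lower. Of 22 auxin genes, 15 were higher and 1 lower in the N-terminal line with a median log2 of 0.97, and 10 were higher in the C-terminal line with a median of 0.53. More auxin genes were thus higher than lower in both lines. Of 11 dark and sugar starvation genes, 8 were higher in the N-terminal line (median 0.84) and 4 in the C-terminal line (median 0.29). Of 17 heat shock genes, 7 were higher and 1 lower in the N-terminal line (median 0.84) and 12 were higher in the C-terminal line (median 1.3). Flavonoid genes gave 6 lower of 17 in the N-terminal line (median -0.69), and 1 higher and 3 lower in the C-terminal line (median 0.20). Of 20 glucosinolate genes, 3 were higher and 12 lower in the N-terminal line (median -0.44), and 3 were higher and 5 lower in the C-terminal line (median -0.22). Of 21 jasmonate genes, 3 were higher and 1 lower in the N-terminal line (median 0.23), and 8 were higher in the C-terminal line (median 0.86). The auxin, starvation, flavonoid and glucosinolate medians were thus farther from wild type in the N-terminal line, and the heat shock and jasmonate medians in the C-terminal line.

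Other lists gave few calls. Flowering time genes gave 0 calls of 22 and phosphate starvation genes 0 of 10 in limma, with and without voom weights, and 2 and 1 of them had an unadjusted p under 0.05. The INO80 complex list gave 2 lower calls of 8, INO80 itself and SDG16 (a histone methyltransferase gene, log2 -0.29). It covers only part of the complex. Over all lists, 10 members whose names were not matched in the reference annotation were left out. From the INO80 complex list these were RVB21, RVB22, EEN, NFRKB1, NFRKB2, NFRKB3 and JMJ24. Histone variant and methylation genes gave 3 higher, SDG25 (log2 0.28), EFS (log2 0.25) and JMJ18 (log2 0.25), and 1 lower, RBL (log2 -0.34), of 22. Circadian clock genes gave 2 higher, TCP11, also known as CHE (log2 0.81), and PCL1, known as LUX (log2 0.34), and 2 lower, AT5G64170, known as LNK1 (log2 -0.58), and RVE8 (log2 -0.32), of 20. Salicylic acid immunity genes gave 3 higher, WRKY18 (log2 1.33), WRKY70 (log2 1.05) and SAG101 (log2 0.72), and 1 lower, SARD1 (log2 -1.18), of 23. Iron genes gave 2 lower of 16, FRO2 (log2 -2.22) and PYE (log2 -0.56), DNA replication and mitosis genes 1 higher of 21, AUR1 (log2 0.34), and antenna and Rubisco genes 1 higher, LHB1B1 (log2 0.46), and 2 lower, LHCB6 (log2 -0.31) and RBCS1B (log2 -0.57), of 21. As deposited, these shares were near or below the 19.1% of all genes called, except for the INO80 complex list, which counts the transgene INO80 itself. With voom weights the clock list gave 7 higher and 1 lower and the histone list 6 higher and 1 lower. Of all 25638 genes, 3149 were then higher and 1540 lower. With equal library totals the clock list gave 4 higher and 1 lower and the histone list 6 higher and 1 lower. Of all genes, 3165 were then higher and 1476 lower.

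**Figure D5:**
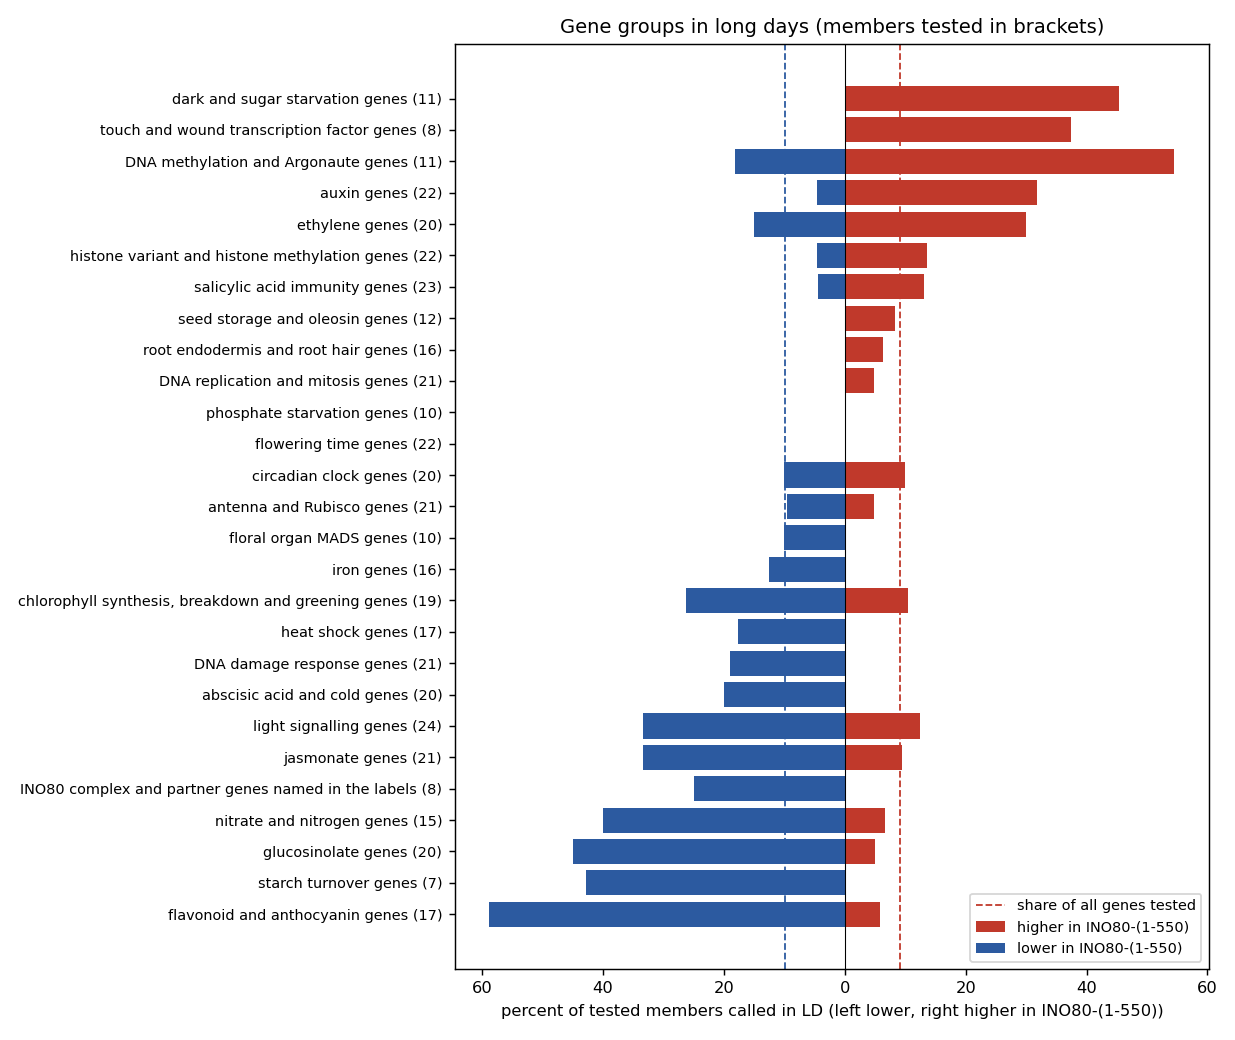
Percent of the tested members of each gene list called higher or lower in the N-terminal line in LD, with dashed lines at the percent of all genes called in that direction, 9.18% higher and 9.92% lower. The lists were written with earlier results of these data known. The flavonoid list had 10 of 17 members lower and the DNA methylation and Argonaute list 6 of 11 higher, and both counts were smaller without repeat 1 of the N-terminal line, 4 and 3.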

How the data were processed

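As deposited, each table gives 1 signal value per gene and library, a read count that the authors scaled for library size. They came from 50-bp single-end reads, per the labels' protocols, aligned with HISAT2 2.2.0 to TAIR10, per the submitters' processing notes, which also name edgeR without its version or role. The unit was read from the values, which are not whole numbers, so no count model was run and the test for normalised values given in the design was used. The counting program, its annotation and its strand setting are not given in the sources used here. The spacing of low values puts 1 read at 0.918 to 1.11 on this scale.

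Values were taken as log2(value + 1), and 25638 of 32548 genes, those that reached 1 in 2 or more libraries, were fitted with limma 3.58.1 (R 4.3.3, data.table in version 1.17.8), with 1 mean per group over 36 libraries, 18 groups and 18 residual degrees of freedom, and a mean-variance trend. Calls used a Benjamini-Hochberg adjusted p under 0.05 over all genes tested. Fold changes on this scale understate those of weakly expressed genes. The method was tested on simulated data. The other table, with 12 libraries normalised apart, was used only to choose ino80 genes from another source.

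Genes were named by rule. INO80 came first. Then came the 15 genes with a symbol that differed most in each direction, with lines not overlapping, a mean of at least 50 in the higher line, and calls kept and folds moved under 1.5 times without each library. The 10 largest in each direction also called in SD followed, then the 10 largest contrasts of LD and SD, then up to 4 called members of each gene list. Other loci are said to be chosen after their values were seen. The values of one called list member are not reported here. The members and lists were chosen with earlier results of these data known. Where annotations overlap, as for GMI1, DFL2, SHY2, ABI1, MBF1C and DIN10, reads may be shared. Gene positions and sequences are from the RefSeq annotation of TAIR10.1, and figures were drawn with matplotlib 3.10.9 under Python 3.11.15. Alternatives were other pseudocounts, filters, scalings, limma without a trend, voom weights, fewer libraries, each library left out and a replicate block.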

Additional observations from a re-analysis of the deposited data

Results flagged for a closer look

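For 20 genes the difference between the N-terminal and the C-terminal line itself differed between LD and SD in limma's test of that contrast, and each was in the 10 largest contrasts of its direction. These calls were not required to hold without each library in turn. Without repeat 1 of the N-terminal line in SD, 16 of the SD differences and contrasts of named genes lost their call and 25 kept it. Day length, age and clock phase at harvest cannot be told apart here. The contrast is the LD difference minus the SD difference on the log2 scale.

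It was positive, that is, more in favour of the N-terminal line in LD, for 10 of them. XTH33 had a contrast of 2.84 (adjusted p = 0.00768), TCH4 2.69 (adjusted p = 0.0196), LRX3 2.48 (adjusted p = 0.0102), EXO 2.33 (adjusted p = 0.0141), EXL5 2.25 (adjusted p = 0.0483) and AGP17 2.17 (adjusted p = 0.0125). DREB26 had 2.33 (adjusted p = 0.0282), DFL2 2.08 (adjusted p = 0.00461), PAR1 2.01 (adjusted p = 0.0034) and TPS12 1.95 (adjusted p = 0.0123).

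It was negative for the other 10, with TAT3 at -4.85 (adjusted p = 0.00653), QQS at -3.17 (adjusted p = 0.00238), CYP78A6 at -2.31 (adjusted p = 0.0241), CRK14 at -2.27 (adjusted p = 0.0178) and FBS1 at -1.98 (adjusted p = 0.0462). GSTF6 had -1.81 (adjusted p = 0.0148), CYP96A4 -1.73 (adjusted p = 0.0118), VSP1 -1.69 (adjusted p = 0.0184), LTI78 -1.61 (adjusted p = 0.0121) and TBL26 -1.58 (adjusted p = 0.00641). CRK14, a cysteine-rich receptor-like kinase, stood at 104 and 140.3 in the N-terminal line and 165 and 165 in the C-terminal line in LD, and at 79.8 and 59.8 in the N-terminal line and 17.3 and 20.4 in the C-terminal line in SD, so the lines were apart mainly in SD. CYP78A6, a cytochrome P450 that promotes seed growth, stood at 64.7 and 26.1 in the N-terminal line and 209 and 163 in the C-terminal line in LD, and at 114 and 98.0 in the N-terminal line and 117 and 75.4 in the C-terminal line in SD, where the lines overlapped. GSTF6, a glutathione transferase, stood at 1172 and 1956 in the N-terminal line and 2641 and 3174 in the C-terminal line in LD, and at 1378 and 1048 in the N-terminal line and 454 and 946 in the C-terminal line in SD, the reverse order.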

How the results depend on the processing

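The 4897 calls between the lines became 2127 in a fit on only the 4 libraries compared, and 3015 to 3486 with each library left out in turn. Those at least 2-fold, 900, became 593 with only the 4 libraries. Pseudocounts of 0.5 and 5, no filter or a stricter one, quantile normalisation, equal totals, voom weights and no trend gave 4464 to 5038 calls. The 1987 calls in SD became 749 to 1098 with each library left out. The 906 calls of the contrast of LD and SD became 572 without a trend and 251 to 1056 with each library left out. Voom weights, like equal totals, raised the share of higher calls, to 67.2%. The share of genes with the N-terminal line nearer wild type and the C-terminal line nearer ino80, 44.6%, was 37.6% with equal totals, 38.5% with voom weights, 47.0% with only libraries of the same day length, 50.4% with only the 4 libraries compared and 40.5% to 56.9% with each library left out. It stayed above the reverse share in each of these. The labels tie equal repeat numbers by nothing. Deviations of equal numbers correlated at 0.177 in the lines in LD, 0.112 in the lines in SD and 0.099 in ino80 and wild type, within the range of -0.54 to 0.44 over all pairs of groups, and a replicate block gave 4989 calls in LD and 2112 in SD and changed no call of a named gene. Over 163 values of named genes and 2485 alternatives, 2217 kept direction and call, 268 lost the call with the same direction, 0 gained one and 0 changed sign. Named genes were mostly chosen among calls, and the largest LD ones only if the call held without each LD library. The tally of kept and gained calls thus follows in part from that choice. The causes of the shifts under these alternatives were not tested, apart from the smaller number of libraries where some were left out. With 2 libraries a line, genes with small or variable differences are the ones that depth and replication limit.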
